A study of Danio rerio with 2 samples.

Results

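The genes described here are 10 non-globin genes of heme synthesis and of the red blood cell. They were chosen by name, as the rows of the authors' table whose symbol is alas2, urod, fech, tfr1a, slc4a1a, epb41b, cahz, nt5c2l1, gata1a or klfd. Each symbol matched 1 row, so the group is 10 of 33733 rows. The study measured gene expression by RNA sequencing in the whole body of zebrafish larvae, 5 days after fertilization, from the strain AB/TL. One library came from 20 pooled larvae homozygous for the lri35 mutation and the other from 20 pooled wild-type siblings of the same clutch. The allele is written lir35 in the sample labels, and the gene it affects is not named there. Each genotype has a single library and thus no replicates, and each difference below compares the 2 libraries, without a test across samples. Pool, library and genotype cannot be told apart.

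A red cell fills itself with hemoglobin, and each globin chain needs a heme. Heme is built in a chain of enzymatic steps that starts and ends in the mitochondrion, from glycine and succinyl-CoA to protoporphyrin, into which iron is inserted last. The iron enters the cell through transferrin receptors, and the cell keeps its shape through a membrane skeleton that is anchored to abundant membrane proteins. GATA and Krüppel-like transcription factors switch these genes on together in erythroid cells. In zebrafish larvae the circulating red cells are of embryonic origin, and mutations in several of the 10 genes are known to cause anemia in this species.

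Values are the authors' deposited expression values, read here as FPKM, a unit that no label states. FPKM are fragment numbers corrected for gene length and library size, so that levels can be compared between genes. The values summed to 874244 in the mutant library and 875340 in the wild-type library, and 22504 and 22106 rows were above 0. Absolute depth is unknown. Judged from the lowest values, the mutant library was about 1.26 times deeper. The expected tissues were present in both libraries, with larval globins summing to 941 FPKM in the mutant library and 1829 in wild type, and 13 digestive enzyme genes of the exocrine pancreas to 6473 and 15454. In whole larvae, fewer red cells and less RNA per red cell cannot be told apart.

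All 10 genes were lower in the mutant library. Of the 19112 genes that averaged 1 FPKM or more over both libraries, 50.9% were lower. The 10 genes were chosen with earlier results of these data known, so this count is a description and not a test. The median difference of the 10 genes, log2 of (mutant FPKM + 1) over (wild-type FPKM + 1), was -0.61, against -0.01 over all 19112 genes. It ran from -2.37 for alas2 to -0.29 for tfr1a. At least 2-fold lower on this scale were alas2 and slc4a1a, 2 of 10, where 3.12% of all genes were. None of the 10 was 2-fold higher, against 2.87% of all genes. Summed over the 10 genes, FPKM was 79.8 in the mutant library and 145 in wild type, so that the sum was lower by a factor of 1.81. The most abundant gene, cahz, made up 41.1% of that sum in the mutant library and 35.1% in wild type, and without it the sum was 1.996-fold lower. Leaving out alas2 instead, whose region is shared with another gene, made the difference smaller. The ratio of the sums, mutant over wild type, was then 0.607, against 0.551 for all 10 genes.

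**Figure D1:**
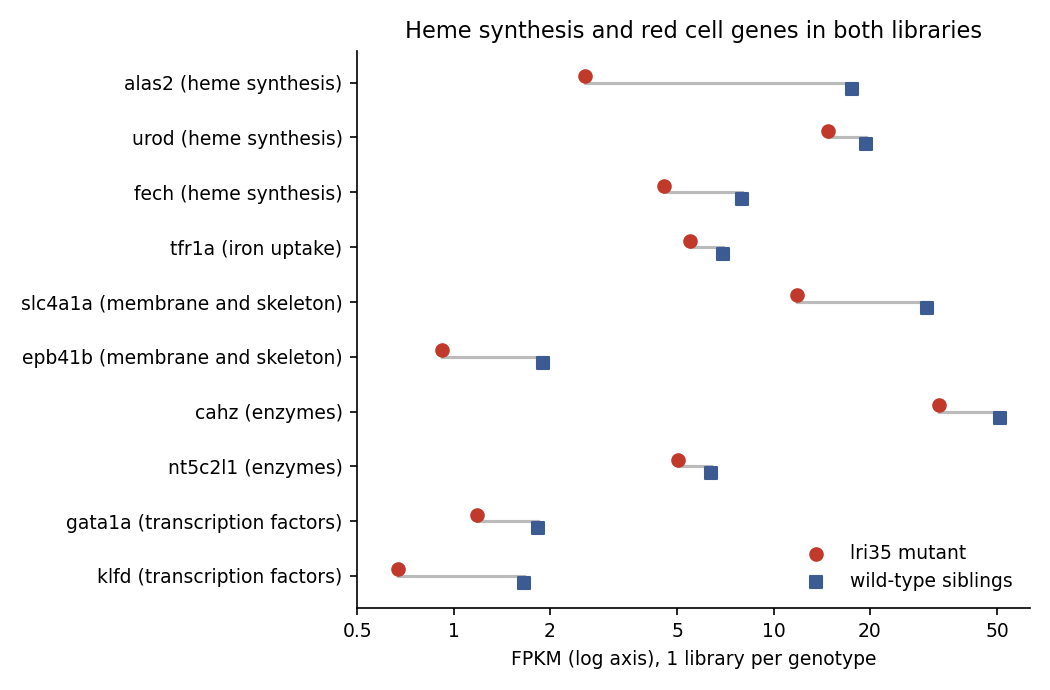
FPKM of each of the 10 genes on a log axis, with 1 point for the mutant library (circles) and 1 for the wild-type library (squares), grouped by role from top to bottom; the points are offset vertically for legibility and there are no error bars, because each genotype has 1 library. Every circle lies left of its square, with the widest gaps at alas2 (2.58 and 17.5 FPKM), slc4a1a (11.9 and 30.2) and klfd (0.669 and 1.66).

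The spread of all genes depends on abundance, which sets how the single values can be read. Among 3132 genes with a mean from 20 to under 100 FPKM, 95% of the log2 differences lay between -0.64 and 0.66. Among 7550 genes from 5 to under 20 FPKM they lay between -0.89 and 0.86, and among 7555 genes from 1 to under 5 FPKM between -1.37 and 1.54. By this measure slc4a1a, at -1.28, and alas2, at -2.37, lay outside the central 95% of genes of like abundance. The other 8 lay inside it, with cahz, at -0.62, close to the lower end. These ranges describe gene-to-gene spread between 2 libraries and are not replicate error.

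**Figure D2:**
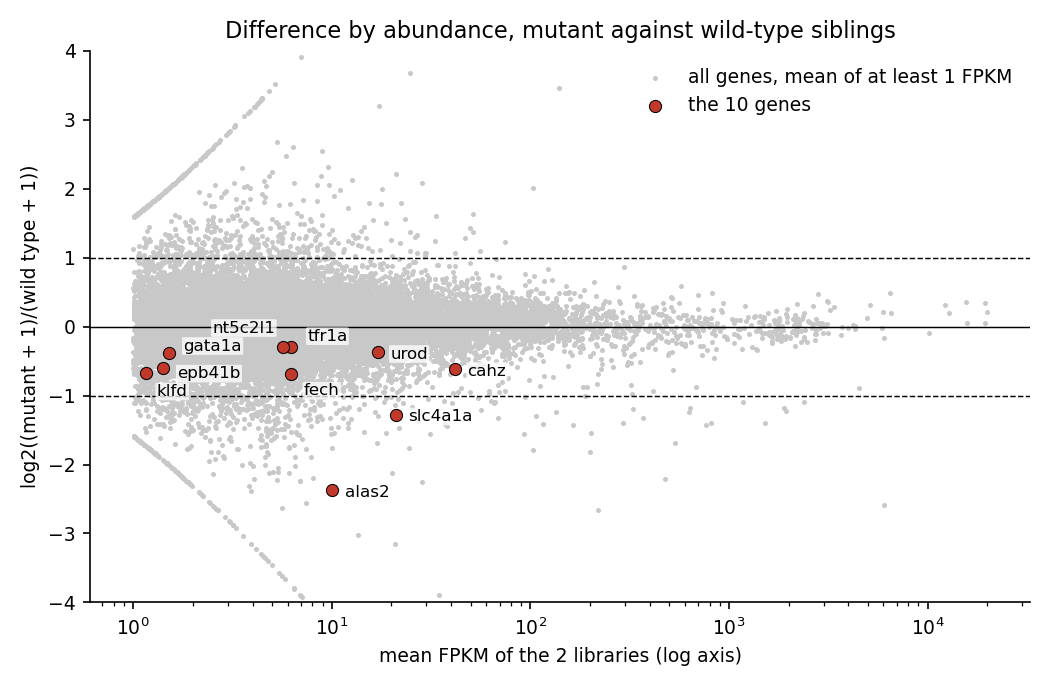
Each grey point is 1 of 19112 genes, plotted by its mean FPKM over both libraries (log axis) and its log2 difference between the mutant and the wild-type library with 1 FPKM added; red points are the 10 genes, dashed lines mark 2-fold, and 14 genes lie beyond the axis limits of 4. All 10 red points are below 0, and alas2 and slc4a1a are below the lower dashed line.

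Heme synthesis was represented by the first step, a middle step and the last. The gene alas2 encodes the erythroid form of aminolevulinate synthase, which makes the first committed precursor, and it is the gene mutated in the zebrafish line sauternes. It stood at 2.58 FPKM in the mutant library and 17.5 FPKM in wild type, 6.80-fold lower. This was the largest difference of the 10, in an abundance range (5 to under 20 FPKM) where 1.87% of genes were at least 2-fold lower, and the authors' deposited table gives it a p of 0.351 and a q of 0.994. Its row (Zv9 chromosome 8, 21891895 to 21910503) carries the same region as the row of ela2l, a pancreatic elastase gene. That neighbour stood at 447 FPKM in the mutant library and 1184 in wild type, 2.65-fold lower, with a q of 0.0405 in the authors' deposited table. The level of alas2 was thus 0.576% of that of ela2l in the mutant library and 1.48% in wild type. The table does not show how fragments of this region were divided between both genes, so the value of alas2 is uncertain, and the part of ela2l in it was not tested.

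The gene urod encodes uroporphyrinogen decarboxylase, a cytosolic middle step, and fech encodes ferrochelatase, which inserts the iron. The level of fech was 4.55 FPKM in the mutant library and 7.98 FPKM in wild type, 1.75-fold lower. The level of urod was 14.8 FPKM in the mutant library and 19.4 FPKM in wild type, 1.31-fold lower. Both enzymes are needed in every cell that makes heme, so a whole-larva value is not that of red cells alone. In the authors' deposited table fech has a p of 0.0768 and urod a p of 0.292, both with a q of 0.994.

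Read along the whole pathway, the enzymes did not differ alike. Of 10 enzyme genes, 7 were lower and 3 higher in the mutant library, with a median log2 difference of -0.37, and only alas2 reached 2-fold. Without alas2, urod and fech the median of the other 7 was -0.24, with 4 of them lower. The abundant alas1, the aminolevulinate synthase of all tissues, stood at 70.8 FPKM in the mutant library and 92.3 in wild type, 1.303-fold lower. Early in the pathway, alad and hmbsa were level or slightly higher in the mutant library, at 13.7 and 15.8 FPKM, against 12.95 and 14.2 FPKM in wild type. The other gene of the hmbsa step, hmbsb, was lower in the mutant library, at 10.9 FPKM, against 15.4 FPKM in wild type. The gene of the following step, uros, was lower as well, at 5.12 FPKM in the mutant library, against 6.98 FPKM in wild type. The enzyme gene between urod and the oxidase ppox, cpox, was higher in the mutant library, at 6.62 FPKM, against 4.23 FPKM in wild type. The late gene ppox stood at 3.85 FPKM in the mutant library and 4.71 FPKM in wild type. The genes alad, hmbsa, hmbsb, uros, cpox and ppox belong to the list of 10 enzyme genes and were named singly with their values in view.

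**Figure D3:**
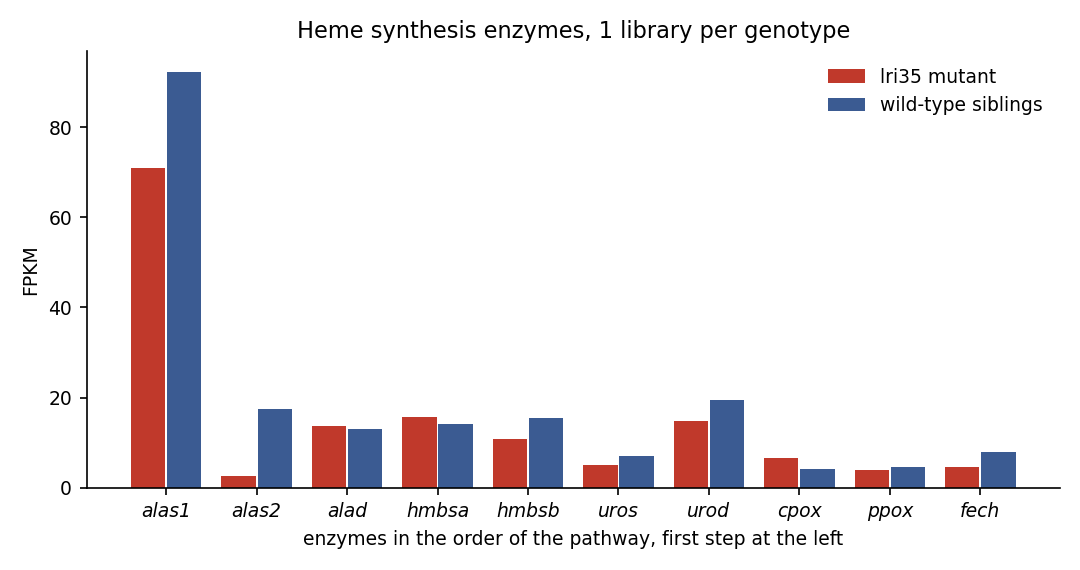
FPKM of the 10 heme synthesis enzyme genes in the order of the pathway, mutant library left (red) and wild-type library right (blue) in each pair, with 1 library per genotype and no error bars. The gap is widest in proportion at alas2 (2.58 and 17.5 FPKM), while alad, hmbsa and cpox are not lower in the mutant library.

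Iron uptake was represented by tfr1a, a transferrin receptor gene that erythroid cells need to take up iron and that is mutated in the zebrafish line chianti. It stood at 5.48 FPKM in the mutant library and 6.94 FPKM in wild type, 1.27-fold lower, the smallest difference of the 10. Its p in the authors' deposited table is 0.402. Genes around it in iron handling lay near equality. Of 18 measured genes of iron uptake, storage and export, tfr1a among them, 10 were lower and 8 higher, with a median log2 difference of -0.03. Without tfr1a the median of the other 17 was -0.01, with 9 of them lower. The ferritin heavy chain gene fth1a stood at 882 FPKM in the mutant library and 918 in wild type. The plasma iron carrier gene tfa stood at 454 FPKM in the mutant library and 532 in wild type. The 1 gene past 2-fold, zgc:173593, named after its values were seen, was low in both, at 0.437 and 2.72 FPKM. Its Ensembl ID carries the name fthl30, a ferritin heavy chain-like gene, in current tables.

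Heme and iron transport in the mitochondrion went both ways, with 7 of 15 genes lower, none past 2-fold and a median of 0.02. Its log2 differences ran from -0.66 for the iron importer gene slc25a28 to 0.57 for the transporter gene abcb6a. The erythroid iron importer gene slc25a37 averaged under 1 FPKM and was not counted, at 0.495 FPKM in the mutant library and 1.07 FPKM in wild type, a plain ratio 2.17-fold lower. These 3 genes were picked out with their values in view. The most abundant genes of the list were hspa9, a mitochondrial chaperone gene, at 147 FPKM in the mutant library and 126 in wild type, and isca1, of iron-sulfur cluster assembly, at 69.7 and 62.2 FPKM. Heme breakdown, export and scavenging had a median of -0.01 over 11 genes, none past 2-fold. In that list the heme oxygenase gene hmox1a was higher in the mutant library, at 48.7 FPKM, against 35.2 FPKM in wild type. The gene of the plasma hemoglobin binder haptoglobin, hp, was lower, at 65.1 FPKM, against 94.3 FPKM in wild type.

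The membrane was represented by slc4a1a, which encodes the chloride and bicarbonate exchanger of the red cell, known as band 3, to which the skeleton is anchored. It stood at 11.9 FPKM in the mutant library and 30.2 FPKM in wild type, 2.55-fold lower. The row of slc4a1a (Zv9 chromosome 3, 19955145 to 19981409) overlaps no other row, and its mean of 21.0 FPKM was the second highest of the 10. Of the 3132 genes with a mean from 20 to under 100 FPKM, 0.958% were at least 2-fold lower. Its p in the authors' deposited table is 1e-04 and its q 0.0694, above the q of 0.0405 of the rows called there. Of 14574 rows tested in the authors' deposited table, 21 have a p as low as or lower than that.

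The skeleton was represented by epb41b, which encodes a red cell protein 4.1 that ties spectrin and actin to the membrane. It was low in both libraries, at 0.918 FPKM in the mutant library and 1.90 FPKM in wild type, a plain ratio 2.07-fold lower. Among the 7555 genes with a mean from 1 to under 5 FPKM, 11.6% had a plain ratio at least 2-fold lower, so this ratio is common at such levels. Of 15 measured genes of the membrane and skeleton, 9 were lower, and slc4a1a was the 1 gene past 2-fold. Without slc4a1a and epb41b the median of the other 13 was -0.14, with 7 of them lower. The most abundant, rhag, of the Rh family, and the water channel gene aqp1a.1, stood at 149 and 92.6 FPKM in the mutant library, against 136 and 104 FPKM in wild type. Several genes of this list are also expressed outside red cells.

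Among the enzymes, cahz encodes a carbonic anhydrase of red cells, which interconverts carbon dioxide and bicarbonate. It was the most abundant of the 10 genes, at 32.8 FPKM in the mutant library and 50.8 FPKM in wild type, 1.55-fold lower. Its p in the authors' deposited table is 0.0391 and its q 0.994. The gene nt5c2l1, of the cytosolic nucleotidase family, stood at 5.01 FPKM in the mutant library and 6.39 FPKM in wild type, 1.27-fold lower. Its p in the authors' deposited table is 0.526. The other 9 red cell enzyme genes had a median of -0.01, with 5 of 9 lower. The abundant peroxiredoxin gene prdx2 stood at 377 FPKM in the mutant library and 443 in wild type.

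The transcription factor genes were low in both libraries. The gene gata1a, the main GATA factor of the red cell lineage, stood at 1.19 FPKM in the mutant library and 1.84 FPKM in wild type, 1.55-fold lower. The gene klfd, an erythroid Krüppel-like factor gene whose Ensembl ID is named klf1 in a current name table, stood at 0.669 FPKM in the mutant library and 1.66 FPKM in wild type, a plain ratio 2.49-fold lower in the same range of abundance as epb41b. With 1 FPKM added, these differences were -0.38 and -0.67. The row of klfd (Zv9 chromosome 6, 9597227 to 9818590) has the same 221 kb region as those of palm3, si:ch211-207j7.2 and nfil3-5, and none of these was lower in the mutant library. They stood at 2.88, 7.97 and 41.8 FPKM in the mutant library, against 2.59, 3.50 and 38.4 FPKM in wild type. The level of klfd was 1.60% of that of nfil3-5 in the mutant library and 4.33% in wild type. How fragments of this region were divided is not shown, so the value of klfd is uncertain as well. The part of these neighbours in it was not tested. The other 14 measured genes of the erythroid transcription factor list had a median of -0.03, with 7 of 14 lower and none past 2-fold. In the mutant library tal1 (5.92 against 5.13 FPKM in wild type), nfe2 (3.48 against 2.97) and myb (3.63 against 2.47) were higher. Lower were lmo2 (4.52 against 5.10 FPKM) and gata2a (5.53 against 7.62). All of these were picked out with their values in view. Averaging under 1 FPKM and not counted, gfi1b and runx1 were listed at 0 in the mutant library, against 0.690 and 0.525 FPKM in wild type. The gene gata2b was at 0 in both. Its most abundant genes, foxo3b and klf3, act in many tissues and stood at 49.7 and 40.2 FPKM in the mutant library, against 59.7 and 43.2 FPKM in wild type. The list of erythropoietin and stem cell factor signalling had 6 of 7 genes lower, none past 2-fold, with a median of -0.22. Among its genes averaging 5 FPKM or more the median was -0.46. In that list the ligand gene kitlga stood at 11.9 FPKM in the mutant library and 16.5 in wild type. The kinase gene jak2b stood at 8.23 FPKM in the mutant library and 8.26 in wild type.

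In the authors' deposited table, 7 of the 10 genes were tested, and gata1a, klfd and epb41b were not. Of the 7, slc4a1a and cahz have a p under 0.05, where 1.7% of all tested rows are lower at that p. None of the 10 is called significant in the authors' deposited table, which calls 0.124% of its tested rows. Those p-values compare 1 library with 1 library.

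For 4 of the genes, a closely related gene gives a comparison within each library. In each pair the gene among the 10 took a smaller share of the summed FPKM in the mutant library. The value of alas2 is uncertain because its region is shared with ela2l, and epb41b was low in both libraries. The related genes ca2 and epb41a are also in the red cell lists above. The share of alas2 in the sum of alas2 and alas1 was 3.51% in the mutant library and 16.0% in wild type. The share of cahz in the sum of cahz and ca2, another carbonic anhydrase gene, was 25.6% in the mutant library and 37.3% in wild type. The share of tfr1a in the sum of tfr1a and tfr1b was 23.0% in the mutant library and 32.0% in wild type. The share of epb41b in the sum of epb41b and epb41a was 10.2% in the mutant library and 15.4% in wild type. The related genes themselves went both ways. The level of ca2 was 95.3 FPKM in the mutant library and 85.3 in wild type, and that of tfr1b 18.4 FPKM in the mutant library and 14.8 in wild type. The level of epb41a was 8.06 FPKM in the mutant library and 10.4 in wild type. The table does not show how reads common to both genes of a pair were assigned.

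**Figure D4:**
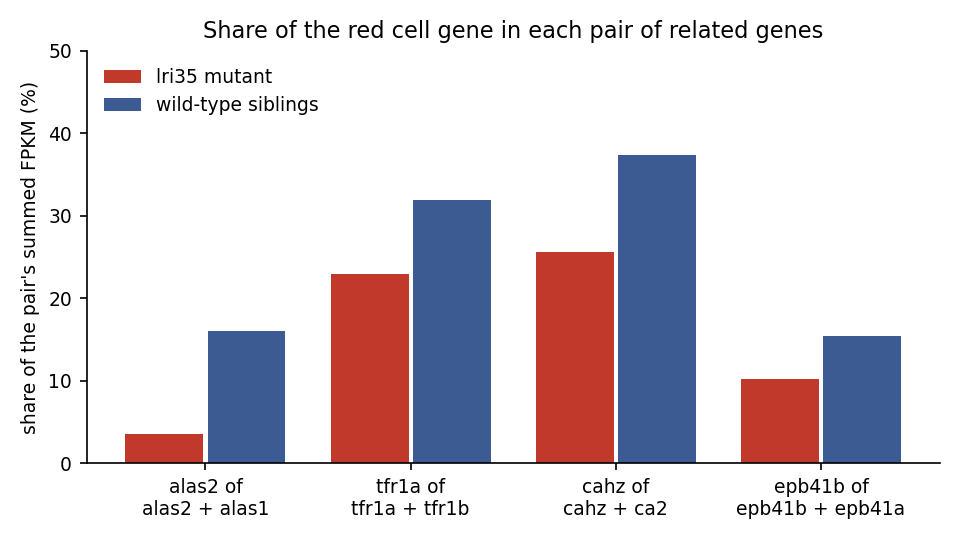
Share of the red cell gene in the summed FPKM of a pair of related genes, in percent, for 4 pairs, with the mutant library left (red) and the wild-type library right (blue) and no error bars, because each genotype has 1 library. All 4 shares are lower in the mutant library, from 3.51% against 16.0% for alas2 to 25.6% against 37.3% for cahz.

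The summed globin genes give a rough scale for the red cell, although single globin genes differed. The sum over 11 matched globin genes was 1.94-fold lower in the mutant library, and the most abundant, hbbe1.1, stood at 412 FPKM in the mutant library and 639 in wild type. The plain ratio of mutant to wild-type library was 0.514 for this globin sum. Of 8 measured globin genes, 7 were lower and 1 higher. The plain ratio was 0.281 for hbbe1.2, 0.334 for hbae1, 0.522 for hbae3 and 0.645 for hbbe1.1, so the sum stands for no single globin gene. The ratios of alas2 (0.147), slc4a1a (0.393), klfd (0.402) and epb41b (0.483) were lower than that of the globin sum. Among these, alas2 and klfd have uncertain values because their regions are shared, and klfd and epb41b were near 1 FPKM. Those of fech (0.570), cahz (0.644), gata1a (0.645), urod (0.761), nt5c2l1 (0.785) and tfr1a (0.789) were higher. The 10 ratios therefore lay on both sides of the globin ratio.

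Markers of other blood cells gave no common direction. Of 12 measured neutrophil and macrophage markers, 6 were lower and 6 higher, with a median of 0.03. With 1 FPKM added, their log2 differences ran from -0.88 for csf1ra to 0.57 for npsn, none past 2-fold. The plain ratios of mpx, spi1b and csf1ra were 2.76-, 2.24- and 2.20-fold lower. In their range of abundance, 1 to under 5 FPKM, 11.6% of all genes had a plain ratio at least 2-fold lower. The highest plain ratio among the measured markers was that of npsn, 1.58-fold higher. These genes were named with their values in view. The sum over all 13 matched markers was 195 FPKM in the mutant library and 184 FPKM in wild type, and the abundant genes weigh most in it. Its most abundant members were mmp9, at 86.7 FPKM in the mutant library and 75.2 in wild type, and the lysozyme gene lyz, at 38.8 FPKM in the mutant library and 43.5 in wild type. Of 8 matched thrombocyte markers only itgb3a and itgb3b averaged 1 FPKM or more, and the sum was 11.1 FPKM in the mutant library and 11.4 in wild type. The thrombocyte receptor gene mpl, f13a1a.1 and gfi1b were listed at 0 in the mutant library, and GP9 and f13a1a.1 in wild type. None of 5 thymocyte markers averaged 1 FPKM or more. Their sum was 1.58 FPKM in the mutant library and 3.10 in wild type, with lck and cd4 listed at 0 in the mutant library and cd4 in wild type. Exocrine pancreas markers, which include the neighbour of alas2, were lower in 13 of 13 cases, 12 of them past 2-fold, with a median of -1.33. Their part in the values of the red cell genes was not tested.

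**Figure D5:**
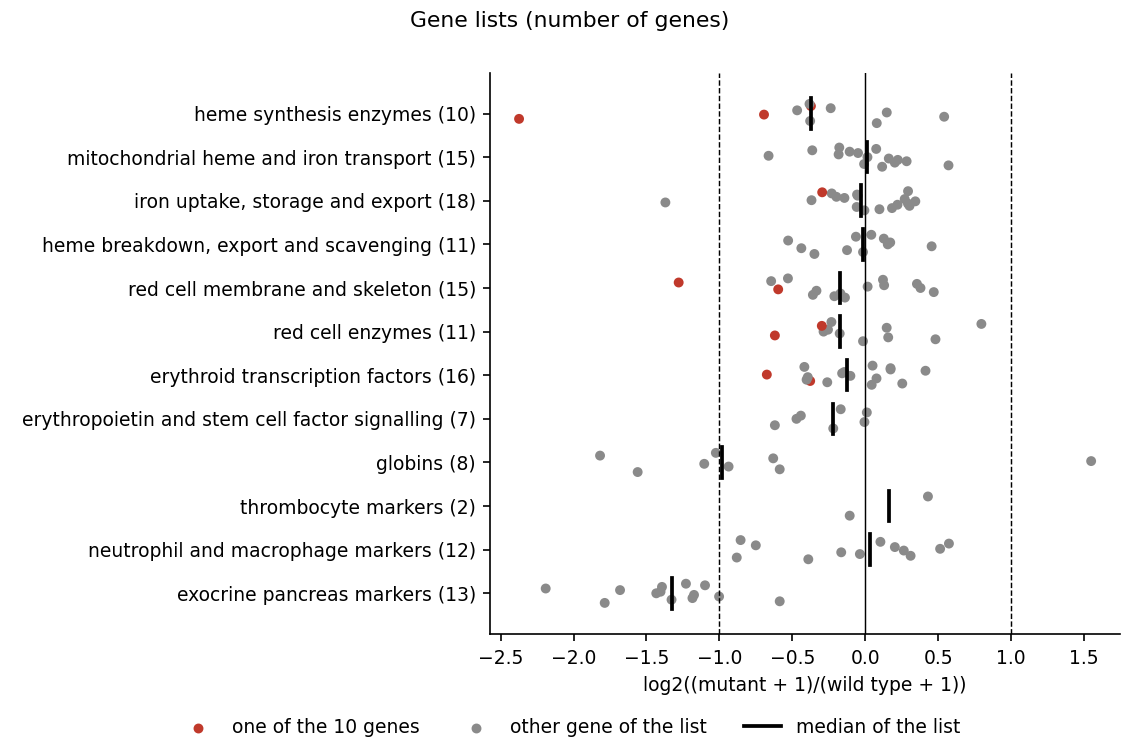
Log2 difference between the mutant and the wild-type library, with 1 FPKM added, for each gene that averaged 1 FPKM or more in 12 lists (number of genes in brackets); red points are among the 10 genes, grey points are other genes of the list, black bars are medians, dashed lines mark 2-fold, and the vertical offset within a list carries no meaning. Of the red points, alas2, slc4a1a, cahz and klfd are each the lowest of their list, the medians of the heme and iron lists lie between -0.37 and 0.02, and those of globins and exocrine markers at -0.98 and -1.33.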

How the data were processed

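Per the labels' protocols, RNA of whole larvae was isolated with a column kit and made into Illumina libraries. CASAVA, Bowtie and the Zv9 build are named in the submitters' processing notes, without versions or roles; no annotation release is named there. The authors' deposited table was read as FPKM because its columns have the layout of a Cuffdiff table; no label states the unit. The p-values and q-values are those the authors deposited and were not recomputed. Coordinates are as deposited. No genome or sequence table was used here.

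With Python 3.11.15 and pandas 2.3.3, rows of 1 symbol were summed, 1 FPKM was added, and genes averaging 1 FPKM or more were kept. A gene counted as past 2-fold at a log2 difference of 1. Lower and higher counts need no fold. Related genes were matched by symbol, then by the Ensembl ID of the current symbol. In the deposited table, 21934 IDs were found in a current name table. Relative depth came from 350 rows with a mean of at most 0.3 FPKM, of which 41.4% lay within 0.1 (log2) of the modal ratio.

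The 10 genes, the lists and the alternatives were chosen with earlier results of these data known. Named genes are the 10, genes sharing their region, 4 related genes, and in each of 13 lists the 2 most abundant genes and those past 2-fold with a mean of at least 5 FPKM; the text prints only some of the exocrine and globin genes this gives. Genes outside this rule are said in the text to have been named with their values known. The blood cell markers and erythroid transcription factor genes listed at 0 are named for being at 0.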

Additional observations from a re-analysis of the deposited data

How the results depend on the processing

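The alternatives were rescaling to the median ratio, rescaling to equal totals once the 50 most abundant genes were set aside, and pseudocounts of 0.1 and 5 FPKM. Each of the 10 genes stayed lower in the mutant library under all of them. That outcome was fixed in advance for the pseudocounts, because adding a constant cannot change the sign of a difference. The median of the 10 genes was -0.71 with a pseudocount of 0.1 FPKM and -0.27 with 5 FPKM, and 3 and 2 of the 10 genes were at least 2-fold lower. The gene added at 0.1 FPKM was klfd (-1.20), which is near 1 FPKM. The share of all genes past 2-fold was not computed at these pseudocounts, so these counts have no background to be read against. The rescalings shifted log2 differences by -0.01 and 0.03. These shifts are smaller than the smallest difference of the 10 genes (-0.29, tfr1a), so they could not change a direction either. With a pseudocount of 5 FPKM the log2 difference of alas2 was -1.57; a larger constant shrinks the differences of low genes. Without alas2, whose region is shared, 1 of 9 genes was at least 2-fold lower and the median was -0.60. The region of klfd is shared as well, and klfd was not left out. The median over iron uptake, storage and export genes was 0.05 instead of -0.03 among genes averaging 5 FPKM or more, and that of thrombocyte markers -0.11 instead of 0.16. The thrombocyte values rest on itgb3a alone at 5 FPKM or more, and on itgb3a and itgb3b at 1 FPKM or more. Leaving cahz out of the sum was chosen after seeing the data. No paired analysis was possible because each genotype has 1 library, and no replicate could be left out. Without counts, values near 1 FPKM (gata1a, klfd, epb41b) have no counting interval.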
